A study of Mus musculus with 6 samples.

Results

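Cytochrome P450 enzymes of families 1 to 4 were examined in proximal colon, comparing wild-type mice with Mthfd1 heterozygotes, which carry a gene trap in that folate enzyme's gene. Every probe set, the array's unit of measurement, was taken whose single platform gene symbol is Cyp followed by a family number from 1 to 4, a subfamily letter and a gene number. This gave 58 probe sets of 49 genes among 22626 probe sets, after control probe sets were left out. A further 4 probe sets carry several symbols, of which at least 1 is such a P450, and were not used.

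Each genotype was represented by 3 colon samples, 1 array per sample, which the labels call biological replicates. The mice of both genotypes were 8 weeks old, had been weaned at 3 weeks and had eaten the purified AIN-93G control diet for 5 weeks. The heterozygous mice came from a BayGenomics gene-trap stock, per the labels. The sources used here do not give the trap's site, the strain or the sex. The series title poses the question of whether Mthfd1 modifies intestinal tumour formation. At its brightest probe set, Mthfd1 itself read 838.6 to 949.9 in wild-type and 453.1 to 549.4 in heterozygous arrays, so the groups did not overlap (log2 difference -0.80, SE 0.12, limma adjusted p = 0.125). Which part of the transcript the trap removes is not known here, so this checks the labels only if the probes lie downstream of it.

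Cytochromes P450 of families 1 to 4 are haem enzymes, mainly of the endoplasmic reticulum, that insert oxygen into fatty acids, steroids, bile acids, drugs and plant compounds. The enzymes of family 1 are the classical targets of the aryl hydrocarbon receptor, and those of families 2 and 3 are controlled in part by the nuclear receptors PXR (Nr1i2) and CAR (Nr1i3). Family 4 enzymes hydroxylate fatty acids and eicosanoids near the end of the chain. In the gut these enzymes lie mainly in the surface epithelium, and small intestine and colon use different members.

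The labelled tissue was compared with its markers, and ileal genes were set beside them because the rule for these genes includes their relation to Fabp6, the ileal bile acid binding protein. The colon markers Car1, a carbonic anhydrase (15442.6 to 19083.6), and Slc26a3, a chloride exchanger (3253.8 to 4884.8), were high on every array. Not all 9 measured of 11 colonocyte genes were so. Hoxb13 was dim (3.3 to 48.2), and Aqp8 ranged from 667.8 to 3454.3. Fabp6 varied far more. It read 1316.8, 5661.9 and 93.5 in wild-type replicates 1, 2 and 3 and 382.3, 5621.6 and 727.8 in heterozygous replicates 1, 2 and 3. Thus replicate 2 had the highest Fabp6 value in both genotypes, whereas the lowest value lay in wild-type replicate 3 and, among heterozygous arrays, in replicate 1. The summed signal of the 14 measured of 16 ileal enterocyte genes includes Fabp6 itself, so its order is in part that of Fabp6. In wild-type arrays it ran from 16802.5 in replicate 3 through 26072.4 in replicate 1 to 44919.2 in replicate 2. In heterozygous arrays it was 18598.2 in replicate 1, 36272.5 in replicate 2 and 20295.5 in replicate 3. Of the other 10 tested ileal genes, 5 passed the test on Fabp6 described further on, led by Apoa1. Apoc3, Slc10a2, Slc5a1, Mme and Dpep1 did not pass, and Dpep1 had a negative slope (-0.022). Apoa4, Fabp1 and Lct were too dim to be tested.

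Of the 58 probe sets, 21, representing 19 genes, had a mean signal above the 40th percentile of all probe sets (95.8) and were tested. The other 37 were not; detection calls were not used here. The filter used the mean over all 6 arrays, so a member could pass through high values in some arrays only. The nearest members inside the limit were Cyp2d12 and Cyp2c38, with mean signals of 97.1 and 101.6, and the nearest outside were a second Cyp4f16 probe set and Cyp2d13, at 83.9 and 83.0. Signal of a probe set depends on the binding strength of its probes, so the order of mean signal that follows is not an order of transcript amounts.

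Members of the Cyp2c subfamily headed that order. Cyp2c55, an arachidonic and linoleic acid hydroxylase abundant in mouse colon, read 13899.1, 14829.6 and 12535.4 in wild-type replicates 1 to 3 and 12939.6, 16830.3 and 16578.5 in heterozygous replicates 1 to 3. This mean signal, 14602, was higher than that of 99.8% of probe sets on the array. Cyp2c65, of the same gene cluster on chromosome 19, read 6155.1, 5622.2 and 4490.2 in wild-type and 5125.2, 6248.8 and 6136.8 in heterozygous arrays. On both probe sets the lowest arrays were wild-type replicate 3 and heterozygous replicate 1, the arrays with the least Fabp6. The genotypes overlapped for both. The probe set of Cyp2c65 is of the type that the array maker names _s_at, which can bind transcripts of more than 1 gene, and its share of signal from close relatives was not tested.

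Next came Cyp4b1, a fatty acid hydroxylase that also activates some plant toxins. It read 3104.8, 3794.8 and 3256.7 in wild-type and 4307.2, 4249.4 and 3602.3 in heterozygous arrays. Cyp2e1, which oxidises ethanol and other small molecules, read 4802.5, 5355.6 and 2557.2 in wild-type and 1384.6, 3198.1 and 3568.7 in heterozygous arrays. Its lowest value was that of heterozygous replicate 1, and its next lowest that of wild-type replicate 3. Cyp3a13, the one Cyp3a member above the filter, read 2362.0, 3076.1 and 1854.6 in wild-type and 2320.2, 3393.5 and 2818.8 in heterozygous arrays. Replicate 2 was the highest array of each genotype for Cyp3a13, as it was for Fabp6.

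The remaining members among the 10 brightest genes read at lower signal. Cyp2d26 read 1152.7, 1190.9 and 1430.4 in wild-type and 1938.3, 1462.7 and 1247.5 in heterozygous arrays. Cyp2s1, an epithelial P450 outside the liver that responds to the aryl hydrocarbon receptor, read 1158.6, 1263.6 and 1143.3 in wild-type and 1012.5, 847.8 and 908.0 in heterozygous arrays, with every heterozygous value below every wild-type value. Cyp4f14, a leukotriene hydroxylase, was among the steadiest, from 906.9 to 1094.8 over all arrays. Cyp4f13, of the same subfamily, ranged from 465.3 to 599.4. Cyp2d34 read 610.4, 564.6 and 938.4 in wild-type and 1341.1, 581.5 and 689.8 in heterozygous arrays, highest in the arrays with the least Fabp6.

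**Figure D1:**
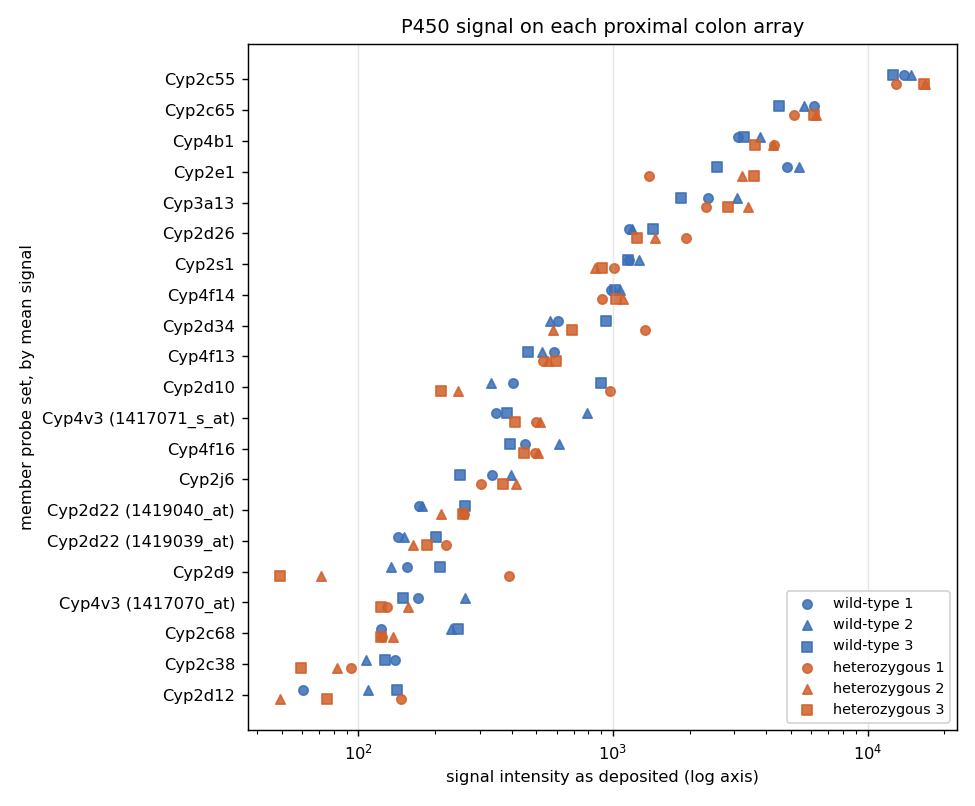
Signal intensity as deposited (log axis) of the 21 tested P450 probe sets, ordered by mean signal, with 1 point per array, wild-type in blue and heterozygous in orange. Cyp2c55 reads at least 12535.4 on every array, Cyp2d10 and Cyp2d34 are spread widely in both genotypes, and only Cyp2s1 and Cyp2c38 show no overlap between genotypes.

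Many P450s associated with liver or with induction by foreign compounds were dim. All 5 probe sets of family 1 were below the filter, and no value of Cyp1a1, Cyp1a2 or Cyp1b1 exceeded 52.6. The 6 probe sets of the Cyp2b subfamily, which holds the CAR target Cyp2b10, read 53.4 at most, and the 3 of the Cyp4a subfamily, targets of PPAR-alpha, 45.3 at most. Cyp3a11, the main PXR target of liver and small intestine, read 39.0, 88.8 and 26.8 in wild-type and 24.6, 53.0 and 21.6 in heterozygous arrays. Cyp3a25 read 18.5, 99.9 and 3.6 in wild-type and 13.2, 140.4 and 2.1 in heterozygous arrays. These 2 genes were chosen once their values were known, because replicate 2 was highest in both genotypes.

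The genotypes were compared on log2(signal + 16) with limma, heterozygous minus wild-type, adjusted by the Benjamini-Hochberg method over all 13576 tested probe sets, with a threshold of 0.05. Adding 16 understates the change of dim genes. In bulk tissue, fewer cells of a type and less RNA per cell cannot be told apart. None of the 21 P450 probe sets passed (smallest adjusted p = 0.718), and 0.0% of all tested probe sets did. At an unadjusted p under 0.05 there were 3 members, Cyp4b1, Cyp2s1 and Cyp2c38, against 5.68% of all tested probe sets. Of these members 1 was higher, against 3.12% of all, and 2 were lower, against 2.56%. The count was 1 of 21 without heterozygous replicate 2 (5.33% of all) and 5 of 20 when wild-type replicate 2 (5.13%), wild-type replicate 3 (7.62%) or heterozygous replicate 1 (7.34%) was left out. With groups that did not overlap there were 2, both lower in heterozygous arrays, against 5.1% of all tested probe sets in that direction. In all, 10.4% of tested probe sets did not overlap. None of the members was higher without overlap, against 5.27%. Over the members the median log2 difference was 0.010, with 12 positive and 9 negative, and over all tested probe sets it was 0.0022.

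Among those members, Cyp2s1 averaged 1188.5 ± 65.5 in wild-type against 923 ± 83.3 in heterozygous samples (SD, n = 3 each). Its log2 difference was -0.36 (SE 0.12, 95% interval -0.63 to -0.098, limma adjusted p = 0.718). Leaving out each array in turn gave -0.43 to -0.30. Cyp2c38, an arachidonic acid epoxygenase, read 138.7, 107.5 and 127.2 in wild-type and 93.9, 82.7 and 59.6 in heterozygous arrays, for a log2 difference of -0.58 (SE 0.21, limma adjusted p = 0.794). It lies close above the filter. Cyp4b1 averaged 3385 ± 363 in wild-type against 4053 ± 391 in heterozygous samples (SD, n = 3 each; log2 0.26, SE 0.11, limma adjusted p = 0.866). For Cyp4b1 wild-type replicate 2 lay above heterozygous replicate 3.

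The other tested Cyp2c members overlapped between genotypes. Cyp2c68 read 122.3, 231.8 and 245.2 in wild-type and 123.8, 137.3 and 122.6 in heterozygous arrays (log2 -0.53, SE 0.24, limma adjusted p = 0.884). Wild-type replicate 1 lay at the level of the heterozygous arrays, and the wild-type values were the more widely spread. Cyp2c55 averaged 13755 ± 1154 and 15449.5 ± 2177 (SD, n = 3 each; log2 0.16, SE 0.11). For Cyp2c65 the log2 difference was 0.11 (SE 0.13), with 5422.5 ± 850.2 and 5837 ± 619 (SD, n = 3 each). Its sign turned without wild-type replicate 3, to -0.017. The limma adjusted p was 0.917 for Cyp2c55 and 0.948 for Cyp2c65.

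Cyp2e1 had the largest difference in size among the tested members, with 4238 ± 1482 in wild-type against 2717 ± 1169 in heterozygous samples (SD, n = 3 each; log2 -0.68, SE 0.37, 95% interval -1.51 to 0.15, limma adjusted p = 0.912). Without heterozygous replicate 1, its lowest array, the value was -0.26. Cyp3a13 averaged 2431 ± 614 and 2844 ± 537 (SD, n = 3 each; log2 0.24, SE 0.19, limma adjusted p = 0.926). The 3 tested Cyp4f members had log2 differences of -0.017 for Cyp4f14, 0.10 for Cyp4f13 and 0.010 for Cyp4f16. The 2 probe sets of Cyp4v3, a fatty acid hydroxylase known from the eye, disagreed, at 0.0012 for the brighter and -0.44 for the dimmer (SE 0.27 and 0.21). Cyp2j6 had a log2 difference of 0.15 (SE 0.19).

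The Cyp2d probe sets had differences of both signs between genotypes, with 4 positive and 3 negative of 7. Cyp2d26 had a log2 difference of 0.28 (SE 0.17) and Cyp2d34 of 0.24 (SE 0.30), whereas Cyp2d10 had -0.39 (SE 0.54), Cyp2d9 -0.45 (SE 0.57) and Cyp2d12 -0.22 (SE 0.37). The intervals were wide, from -1.61 to 0.83 for Cyp2d10 and from -1.74 to 0.85 for Cyp2d9, so both a 2-fold lower level and no difference lay within them. The difference turned to 0.027 for Cyp2d10 without wild-type replicate 3, to -0.11 for Cyp2d34 without heterozygous replicate 1, to 0.064 for Cyp2d9 without heterozygous replicate 3 and to 0.083 for Cyp2d12 without heterozygous replicate 2.

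**Figure D2:**
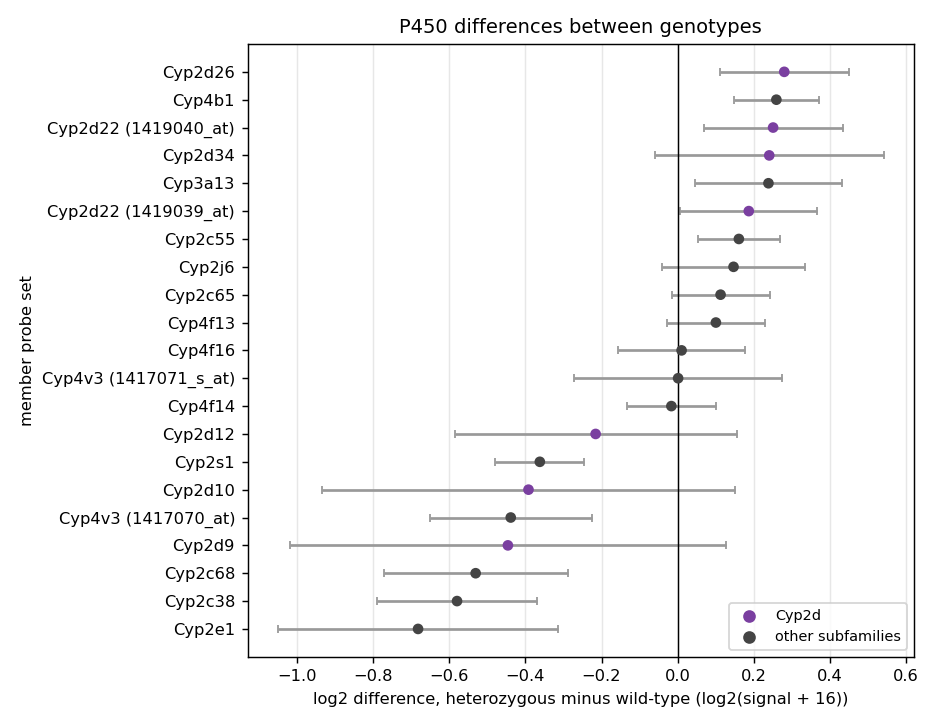
Log2 difference between heterozygous and wild-type arrays for the 21 tested P450 probe sets, on log2(signal + 16), with bars of 1 SE from limma. The differences run from -0.68 for Cyp2e1 to 0.28 for Cyp2d26, and none had an adjusted p below 0.718.

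Among the 37 probe sets below the filter, 6 had heterozygous values all below the wild-type values and none the reverse. Of all 9050 probe sets below the filter, 8.76% were lower and 3.47% higher in this sense. The 6 belong to Cyp2d13, Cyp2b19, Cyp3a44, Cyp2b10, Cyp2c37 and Cyp2c39, named after their values were seen, and all lie at mean signals from 17.0 to 83.0. The 6 were not tested in the main comparison. In the alternative without the filter, 10 of all 58 members had an unadjusted p under 0.05 between genotypes (limma), against 6.17% of all probe sets. The smallest limma adjusted p among members was then 0.337. Other probe sets of Cyp2b10 and Cyp2d13 overlapped between genotypes. For Cyp2b10 these averaged 17.4 and 17.2 in wild-type against 16.7 and 16.7 in heterozygous arrays. For Cyp2d13 the means were 31.4 and 25.1.

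Several members differed widely between arrays. Between the highest and the lowest of all 6 arrays, whichever their genotype, signal + 16 differed 2-fold or more for 8 of the 21 tested members, or 38.1%, against 8.41% of all tested probe sets. The widest were Cyp2d9 (6.22-fold), Cyp2d10 (4.37-fold) and Cyp2e1 (3.84-fold), and the narrowest was Cyp4f14 (1.20-fold). These are descriptions of 6 arrays, and members of 1 subfamily may share probe sequence.

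Cyp2d10 read 403.5, 331.1 and 895.6 in wild-type and 973.6, 246.0 and 210.7 in heterozygous arrays. Cyp2d9, a steroid hydroxylase of male mouse liver, read 155.1, 134.7 and 210.1 in wild-type and 389.3, 71.3 and 49.2 in heterozygous arrays. Cyp2d12 read 60.8, 109.5 and 141.4 in wild-type and 146.5, 49.4 and 75.2 in heterozygous arrays. All 3 were highest in heterozygous replicate 1 and, among wild-type arrays, in replicate 3. The brighter Cyp2d22 probe set ranged from 173.2 to 262.0 and the dimmer from 143.0 to 220.3.

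Wild-type replicate 3 and heterozygous replicate 1, the arrays with the least Fabp6, exceeded the other 4 arrays for 6 of the 21 tested members, against 12.4% of all tested probe sets. These 6 were Cyp2d34, Cyp2d10, Cyp2d9, Cyp2d12 and both probe sets of Cyp2d22. The same arrays lay below the other 4 for 5 members, Cyp2c55, Cyp2c65, Cyp2e1, Cyp3a13 and Cyp2j6, against 8.57% of all tested probe sets. This pair of arrays was singled out after the values were seen, and the counts are given as descriptions only.

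Upstream sequence is shown for some of these members. Cyp2d10 and Cyp2d9 were high in the arrays in which Cyp2c55, Cyp2c65 and Cyp3a13 were low. Cyp2d26 is shown because it belongs to the cluster of Cyp2d10 and Cyp2d9, although it was not among the members with either pattern. Others with a pattern, such as Cyp2e1, are not shown. Of the 19 tested genes, 16 had a promoter entry in the RefSeq table of build GRCm38.p6, matched by symbol. The 150 bases before the annotated start are given 5′ to 3′ on the strand of the gene. Capitals mark CAAAGNNCA, letters common to elements known to bind the receptor HNF4A, and TATAA, the core of the TATA box, both searched on both strands. Where TATAA was found on the strands in overlap, the capitals cover both.
Cyp2d10, chr15:82407195-82407344, minus strand: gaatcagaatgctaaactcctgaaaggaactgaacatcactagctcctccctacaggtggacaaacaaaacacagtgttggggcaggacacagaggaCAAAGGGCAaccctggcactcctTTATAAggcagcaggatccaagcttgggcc
Cyp2d9, chr15:82452227-82452376, plus strand: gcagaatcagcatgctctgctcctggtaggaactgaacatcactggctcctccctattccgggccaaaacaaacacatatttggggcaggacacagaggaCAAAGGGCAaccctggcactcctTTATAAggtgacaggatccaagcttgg
Cyp2d26, chr15:82794246-82794395, minus strand: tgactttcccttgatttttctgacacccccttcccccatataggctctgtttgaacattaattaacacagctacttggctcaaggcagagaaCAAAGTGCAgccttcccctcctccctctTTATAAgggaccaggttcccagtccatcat
Cyp2c55, chr19:39006869-39007018, plus strand: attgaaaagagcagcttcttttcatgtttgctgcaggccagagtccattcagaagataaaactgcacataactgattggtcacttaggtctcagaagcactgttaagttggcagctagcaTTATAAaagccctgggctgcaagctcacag
Cyp2c65, chr19:39060856-39061005, plus strand: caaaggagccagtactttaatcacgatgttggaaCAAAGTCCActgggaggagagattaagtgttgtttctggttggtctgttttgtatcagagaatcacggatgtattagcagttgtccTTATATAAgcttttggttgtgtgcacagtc
Cyp3a13, chr5:137921620-137921769, minus strand: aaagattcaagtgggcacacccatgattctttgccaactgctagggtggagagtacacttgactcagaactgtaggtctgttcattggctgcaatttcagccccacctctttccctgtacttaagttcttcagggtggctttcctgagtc

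The Cyp2d10 and Cyp2d9 windows were identical at 82.6% of aligned positions, Cyp2d10 and Cyp2d26 at 55.2%, and Cyp2c55 and Cyp2c65 at 59.0%. In Cyp2d10, Cyp2d9 and Cyp2d26 CAAAGNNCA stood a short way before TATAA, beginning 53, 50 and 58 bases before the start. In Cyp2c65 it began 116 bases before the start. The Cyp3a13 window held neither set of letters, and that of Cyp2c55 held TATAA alone. CAAAGNNCA was present in 6 of the 16 windows of tested members and in 3.25% of all 32851 promoter windows of this length, and TATAA in 8 of 16 and in 14.2%. Members were counted with 1 window per gene, whereas the 32851 windows were not reduced to 1 per gene, so the shares are not fully alike. The 6 windows include those of the related genes Cyp2d10, Cyp2d9 and Cyp2d26 and are not separate observations. The letters were chosen after the sequences were seen, so these shares are descriptions only. A match is not evidence that a factor binds.

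The relation to Fabp6 was fitted in limma with genotype and log2(Fabp6 signal + 16) together, over all 13575 tested probe sets other than that of Fabp6. The slope gives the log2 units of a member per log2 unit of Fabp6. None of the 21 members passed the threshold of 0.05 (smallest adjusted p = 0.0682, for Cyp3a13), and 0.501% of all probe sets did. At an unadjusted p under 0.05 there were 10 members, 7 with a positive and 3 with a negative slope, against 12.8% of all probe sets (5.35% positive and 7.45% negative). The median slope was 0.026 over the members and -0.0073 over all probe sets, and its median size 0.079 against 0.031. The count at an unadjusted p under 0.05 depended on wild-type replicate 3, the array with the least Fabp6. Without it, 2 of 20 members, Cyp3a13 and Cyp2d34, had an unadjusted p under 0.05, against 6.69% of all probe sets. Without heterozygous replicate 2 the count was 6 of 21, against 9.59%.

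Cyp3a13 had a slope of 0.13 (SE 0.024, 95% interval 0.071 to 0.18). Its slope stayed between 0.11 and 0.14 when each array was left out in turn, and the limma adjusted p then ran from 0.0373 without heterozygous replicate 3 to 0.594 without wild-type replicate 3. Over the 6 arrays its Pearson correlation with Fabp6 was r = 0.92 (exact permutation p = 0.0111, 0.420 adjusted over all probe sets) and Spearman's rho was 0.89 (exact permutation p = 0.0333, 0.511 adjusted). Without wild-type replicates 2 and 3, the arrays farthest from the median of Fabp6, r was 0.80. Cyp2j6, described here because of its values, read 335.2, 398.5 and 250.9 in wild-type and 302.4, 414.9 and 368.2 in heterozygous arrays, in the order of Fabp6 within each genotype. Its slope was 0.11 (SE 0.031, limma adjusted p = 0.189), with r = 0.94 (exact permutation p = 0.00556, 0.377 adjusted), rho = 0.89 (exact permutation p = 0.0333, 0.511 adjusted) and r = 0.86 without those 2 arrays. Correlations were computed for all 13575 probe sets, and 3 arrays are too few for one within a genotype.

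Cyp2e1 had the steepest positive slope, 0.20 (SE 0.060, limma adjusted p = 0.196), and passed without heterozygous replicate 3 (slope 0.23, adjusted p = 0.0100). With another array left out its adjusted p was up to 0.778 (wild-type replicate 3), and with robust variance in limma it was 0.403. The slopes of Cyp2c55 and Cyp2c65 were shallow, at 0.053 (SE 0.020, limma adjusted p = 0.303) and 0.062 (SE 0.024, adjusted p = 0.321). Both Cyp4v3 probe sets and Cyp4f16 were positive as well, with slopes of 0.12, 0.11 and 0.076. All 6 tested probe sets of family 4 had positive slopes, as did 5873 of all 13575 probe sets, and 2 of the 6 had an unadjusted p under 0.05, while 5.35% of all probe sets had such a p and a positive slope. The 5 slopes nearest to 0 were those of Cyp2s1, Cyp2c68, Cyp2c38, Cyp4f13 and Cyp4f14, between -0.020 and 0.026. Cyp2s1, which had the smallest unadjusted p between genotypes among the members, is thus also the member with the slope closest to 0 (-0.0034, SE 0.030).

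All 7 tested Cyp2d probe sets had negative slopes, as did 7702 of all 13575 probe sets. Cyp2d10 had -0.29 (SE 0.091, limma adjusted p = 0.226), Cyp2d9 -0.20 (SE 0.12), Cyp2d34 -0.17 (SE 0.048, adjusted p = 0.183), Cyp2d12 -0.15 (SE 0.076), Cyp2d22 -0.091 and -0.079 at its probe sets, and Cyp2d26 -0.053 (SE 0.038). Of these 7 probe sets, those of Cyp2d10 and Cyp2d34 and the brighter of Cyp2d22 had an unadjusted p under 0.05, while 7.45% of all probe sets had such a p and a negative slope. Cyp2d10 passed without heterozygous replicate 3 (slope -0.33, limma adjusted p = 0.0170), but its adjusted p was 0.774 without wild-type replicate 3 and 0.496 with robust variance. Without heterozygous replicate 1 its slope was -0.19 (limma adjusted p = 0.255). For Cyp2d34 Spearman's rho with Fabp6 was -0.94 (exact permutation p = 0.0167, 0.453 adjusted) and r was -0.76 (exact permutation p = 0.0903, 0.586 adjusted), or -0.77 without wild-type replicates 2 and 3. These genes lie in 1 cluster of related genes on chromosome 15, so the 7 probe sets are not 7 separate observations, and their share of signal from one another was not tested.

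**Figure D3:**
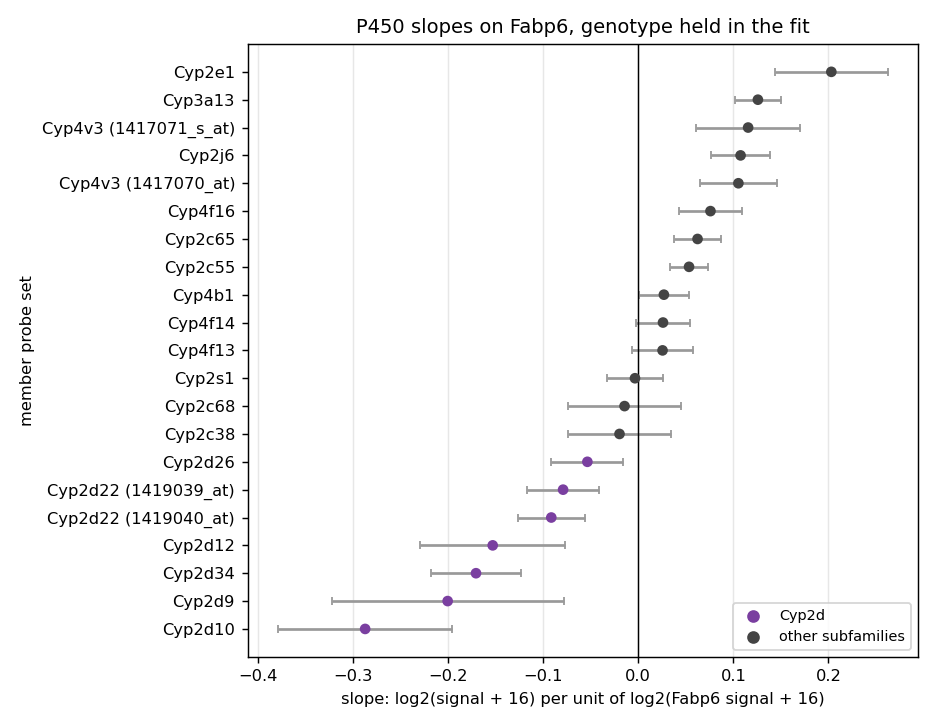
Slope of each tested P450 probe set on Fabp6, with genotype in the fit and bars of 1 SE from limma. The 7 Cyp2d probe sets, in purple, all lie below 0, from -0.29 to -0.053, and none of the 21 slopes had an adjusted p below 0.0682.

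Order within a genotype gave a view that does not pool wild-type and heterozygous arrays. Cyp2c55, Cyp3a13 and Cyp2j6, 3 of the 21 members, ran in the order of Fabp6 in both genotypes, against 3.79% of all probe sets. Cyp2d34 ran in the reverse order in both, against 5.87%.

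**Figure D4:**
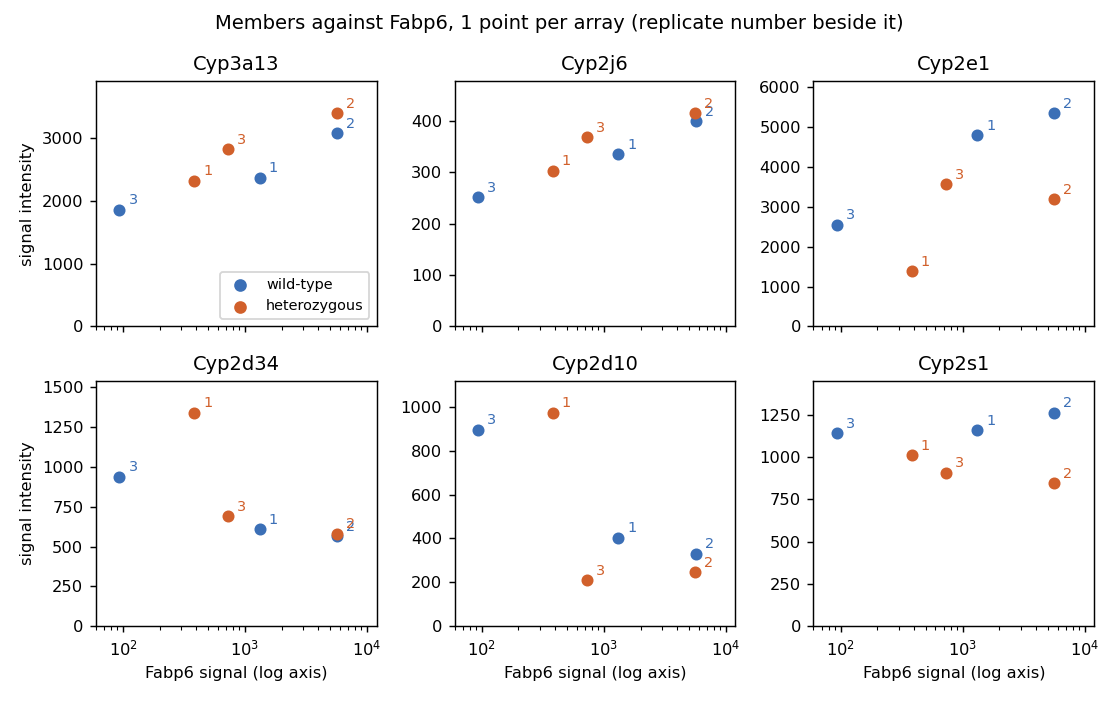
Signal intensity of 6 members against Fabp6 signal (log axis), 1 point per array with its replicate number, wild-type in blue and heterozygous in orange. Cyp3a13 and Cyp2j6 are lowest in wild-type replicate 3, where Fabp6 read 93.5, Cyp2d34 and Cyp2d10 are highest in wild-type replicate 3 and heterozygous replicate 1, and Cyp2s1 is split by genotype.

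Receptors and partners of P450 enzymes were a separate list of 24 genes, of which 22 had a probe set with 1 symbol and 17 were tested. Between genotypes none of the 17 had an unadjusted p under 0.05, against 5.68% of all probe sets, and the median log2 difference was -0.037. The PXR gene Nr1i2 read 223.3, 309.5 and 175.3 in wild-type and 213.4, 254.8 and 320.4 in heterozygous arrays (log2 0.16, limma adjusted p = 0.959). The CAR gene Nr1i3 was below the filter, at 5.2 to 37.7. The aryl hydrocarbon receptor gene Ahr ranged from 559.0 to 817.3 (log2 0.16, limma adjusted p = 0.937). On Fabp6, 3 genes of the list had an unadjusted p under 0.05 with a positive slope and 2 with a negative one, against 5.35% and 7.45% of all probe sets, and 0 passed when adjusted. The positive ones were Hnf4a, a nuclear receptor of gut and liver epithelium (slope 0.080, limma adjusted p = 0.183), Alas1, the first enzyme of haem synthesis (0.11, adjusted p = 0.206), and Ephx2, an epoxide hydrolase (0.099, adjusted p = 0.207). The negative ones were the glucocorticoid receptor gene Nr3c1 (-0.074, limma adjusted p = 0.305) and the epoxide hydrolase Ephx1 (-0.096, adjusted p = 0.373).

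P450 genes of other families numbered 14, of which 4 were tested. Of these Cyp51, a cholesterol synthesis enzyme, had a log2 difference of -0.57 between genotypes (limma unadjusted p = 0.0129, adjusted p = 0.718). Its heterozygous values (426.0 to 746.1) all lay below its wild-type values (814.1 to 867.7). Of all tested probe sets, 2.56% were lower at an unadjusted p under 0.05, and 5.1% were lower without overlap. None of the 4 had an unadjusted p under 0.05 on Fabp6.

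Marker lists of other cells also differed between these arrays. The summed signal of 5 smooth muscle genes was 33015.4, 29391.9 and 40349.6 in wild-type and 35956.7, 29606.7 and 32571.2 in heterozygous arrays, highest in each genotype where Fabp6 was lowest and Cyp2d10 highest. All 5 had a negative slope on Fabp6 at an unadjusted p under 0.05, and Cnn1 passed (-0.14, limma adjusted p = 0.0270). The summed signal of 3 measured of 5 adipocyte genes was lowest in the same arrays, at 10912.3 and 12353.9, against 15376.3 to 17594.2 in the others. Of these genes Fabp4 passed on Fabp6 (slope 0.12, limma adjusted p = 0.0358). Adipoq (0.088, adjusted p = 0.184) and Retn (0.14, adjusted p = 0.396) did not. Of the 8 tested colonocyte genes, 2 had a positive and 1 a negative slope on Fabp6 at an unadjusted p under 0.05. The surface keratin Krt20 read 4396.2 in the wild-type and 5268.5 in the heterozygous array with the least Fabp6, against 7570.6 to 7996.6 in the others, and the water channel Aqp8 passed on Fabp6 (slope 0.33, limma adjusted p = 0.0353). The carbonic anhydrase Car4 had a slope of the opposite sign (-0.11, limma adjusted p = 0.258) and read 6415.8 in wild-type replicate 3, its highest array. The slope of Car1 was -0.0053 (adjusted p = 0.951) and that of Slc26a3 0.036 (adjusted p = 0.686). Of 6 measured hepatocyte genes 4 were below the filter, among them Alb (41.4 to 86.3) and Fgb (1.4 to 3.4). The other two had slopes of opposite sign: Ttr, which other tissues also make, passed on Fabp6 (0.29, limma adjusted p = 0.00457), and Tat, a tyrosine-degrading enzyme, had -0.059 (adjusted p = 0.656). The part of muscle, fat, ileal or surface epithelial content in the P450 values was not tested.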

How the data were processed

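The deposited series table holds 1 linear signal intensity per probe set and array, which the authors made with GCOS, per the submitters' processing notes; the sources used here give neither version nor settings. RNA was amplified and labelled with biotin, per the labels' protocols. Without its top and bottom 2%, each array averaged 500, as tested on the deposited intensities, and medians ran from 156.8 to 168.2, so arrays were used as deposited. The number of arrays limits the precision.

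Gene names came from the platform annotation (20380 probe sets with 1 symbol, 691 with several, 1555 with none). All 49 member gene numbers were found in the GRCm38.p6 table, and 0 names differed. Values entered as log2(signal + 16). Probe sets whose mean was under the 40th percentile were left out. limma 3.58.1 in R 4.3.3 (lmFit, eBayes with a variance trend, two-sided) tested genotype, and genotype with Fabp6. Correlations used the 720 pairings of the arrays. The rule for the members to be named took the 10 brightest genes, members with an unadjusted p under 0.05 or without overlap, and the 5 largest and 5 smallest slopes in size; Cyp2j6, Cyp3a11 and Cyp3a25 were added after their values were seen.

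The members, lists and tests were chosen with earlier results of these data known. The labels call the samples biological replicates, and p-values measure the spread between these samples. On simulated data, the genotype fit over 13576 probe sets called 69.1% of 2-fold changes, and the Fabp6 fit over 13575 called 92% of slopes of 0.5. The members' largest values in size were below these, at log2 -0.68 (Cyp2e1) and a slope of -0.29 (Cyp2d10). Smaller changes were not simulated, and the simulated noise was independent between probe sets. The shares called therefore do not apply to the members' values. Alternatives were the normalization, pseudocount, filter, variance model, replicate block, covariate and each array left out.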

Additional observations from a re-analysis of the deposited data

How the results depend on the processing

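No P450 probe set passed between genotypes under any alternative run. Over all probe sets the count past the threshold was 0 in the main analysis, 8 with robust variance, 7 with Fabp6 as a covariate, and 0 to 39 with each array left out in turn (39 without heterozygous replicate 1; for wild-type replicate 3 it was 2). The members' median log2 difference was -0.086 without the filter, 0.11 with the filter at the 60th percentile, and -0.019 to 0.12 with each array left out. On Fabp6, 68 probe sets passed, against 40 without the filter, 44 without a variance trend, 34 without the genotype term, 106 with Apoa1 in place of Fabp6, and 19 to 197 with each array left out. The low counts were 19 when wild-type replicate 2 was left out and 25 for wild-type replicate 3, and the high one 197 without heterozygous replicate 3. For members that count was 0 except without heterozygous replicate 3, where it was 3 (range 0 to 3). The smallest limma adjusted p among members was 0.0564 with Apoa1 and 0.186 without a variance trend. The cause of these shifts was not tested.

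The same replicate numbers occur in both genotypes. Deviations from the group means correlated at -0.12, 0.50 and 0.050 for numbers 1, 2 and 3. Wild-type replicate 3 correlated best with heterozygous replicate 1 (0.42). The labels give a replicate number only, and 3 such values cannot show whether equal numbers mark paired samples. With the replicate block, 0 members passed between genotypes, 5 rather than 3 had an unadjusted p under 0.05, and the median was 0.010. The block was not run with Fabp6, where it would leave 1 residual degree of freedom.

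For the 15 members that the naming rule chose, a log2 difference or slope changed sign in 14 cases, each with 1 array left out. The filter was applied anew to the arrays kept, so members near it dropped out of some fits. Cyp2d12 was compared only without wild-type replicate 1, heterozygous replicate 2 or heterozygous replicate 3. Cyp2c38 was not fitted without wild-type replicate 1. The count and the ranges that follow cover only the fits in which a member was kept. The ranges over arrays left out were -0.017 to 0.21 for the log2 difference of Cyp2c65, -0.075 to 0.059 for Cyp4f14, -0.11 to 0.48 for Cyp2d34, -1.07 to 0.027 for Cyp2d10, -1.25 to 0.064 for Cyp2d9 and -0.51 to 0.083 for Cyp2d12. For slopes they were -0.033 to 0.018 for Cyp2s1, -0.013 to 0.043 for Cyp4f13, -0.093 to 0.12 for Cyp2c68 and -0.044 to 0.015 for Cyp2c38. With 3 arrays a genotype and no detection calls used here, small changes and values below the filter cannot be judged.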

Other observations

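The remaining marker lists held no gene past the threshold between genotypes, and 0 at an unadjusted p under 0.05 (limma). Among 4 tested macrophage genes the median log2 difference was 0.18, and the 5 measured genes had a summed signal of 2538.5 to 2727.2 in wild-type and 2665.1 to 3430.9 in heterozygous arrays. For 4 goblet cell genes the median was -0.054 and the median slope on Fabp6 was -0.0074. The 4 tested endothelial genes had a median of -0.018. Of the exocrine pancreas list 1 of 4 measured genes was tested, Cela1, at log2 -0.24 (limma adjusted p = 0.909).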
